A study of Homo sapiens with 21 samples.

Results

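Tri-C reads that joined a viewpoint to a pair of distant fragments lying on the same side of it were examined at 51 gene loci. A member was a pair of NlaIII fragments whose midpoints were both on 1 side of the viewpoint, both 10 kb to 1 Mb from it and over 10 kb from each other. In all 7 libraries together, 2546256 of 16038041 listed fragment pairs met this rule, which is 15.9%, and they carried 3319377 counts. A count is the number of times a pair of fragments was read together with the viewpoint, so each count stands for a contact of 3 fragments. Pairs that met the same distance limits but lay on opposite sides of the viewpoint numbered 1421792 and served for comparison.

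The cells belonged to BLaER1, a leukemia line of human B cells that converts into induced macrophages (iMacs) when C/EBPα is activated with 17β-estradiol in the presence of IL-3 and CSF-1. One panel of viewpoints lay on enhancers and another on CTCF-binding sites (CBSs) at the domain border of each locus, and both were captured at the start of conversion (0 h) and 24 h and 96 h later. The enhancer panel was also captured at 96 h in a BLaER1-CTCF-mAID subclone, in which auxin added with the conversion factors depletes CTCF. The control library at 96 h came from parental BLaER1 cells, so depletion, auxin and the subclone cannot be told apart. The 21 samples form 7 groups of 3 replicates, but the replicates of a group were merged before deposit. There was therefore 1 library per condition, no replicate check and no p-value, and all intervals below are 95% intervals that cover counting error only. The loci comprised 36 of genes that the study classed by expression as specific to iMacs and 15 of genes classed as specific to B cells.

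Enhancers are thought to reach promoters within domains whose borders are often occupied by CTCF. In the loop extrusion model, cohesin reels in chromatin until it meets CTCF, and CTCF stops it according to the direction of its motif, so that a site mostly contacts the chromatin that its motif faces. Fragments on the same side of a viewpoint that are read together with it report on folding within 1 arm of the locus, whereas fragments on opposite sides report on contacts across the viewpoint. CTCF-binding sites are used below as fixed landmarks, and the position of the CBS viewpoint is called the boundary site of its locus.

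The viewpoint itself is missing from the listed fragments and was placed in a gap of the list. In 339 of the 357 files, the gap with the highest summed counts at its touching fragments was taken. In the other 18 files, from 9 loci, this placed the viewpoint at a wrong position, and the gap with the highest counts within 5 kb of its edges was used instead. Results without these loci are given with the dependence on processing.

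The direction of the CTCF motif gives the same-side pairs of a CBS viewpoint a frame of reference. Matches to the CTCF core consensus, with at most 1 mismatch and within 1 kb of the viewpoint, were found on a single strand at 29 of 51 CBS viewpoints, 13 on the plus strand and 16 on the minus strand, and on both strands at 1 more. In 2-kb windows of the same loci, such a match was found in 11.3%, and an exact match in 0.91%. The following stretches of hg38 are printed in the direction of the motif, with the core in capitals. They are shown because they include the exact matches of NFKBIZ, MPEG1 and IGLL1, the sites with the strongest lean of pairs (CD14 and IL7R) and the site with the clearest exception (SRGN).
NFKBIZ: cctgaccacCCAGCAGGTGGCctcagatta
MPEG1: ggcatatttCCACTAGGTGGCagcaacatt
IGLL1: gccaggcatCCACTAGGTGGCactttctgc
CD14: ccaacaggaCCCGCAGGGGGCagtgatgag
IL7R: aaatttccaCCACCAGAGGTCctcagatga
SRGN: gtcttatgcCCTCTAGGTGGCtggtaaatg
The NFKBIZ stretch lies at chr3:102224388-102224417 on the minus strand, in an intron of ZPLD1. The MPEG1 stretch lies at chr11:59430102-59430131 on the minus strand, between genes. The IGLL1 stretch lies at chr22:23862279-23862308 on the plus strand, in introns of ENSG00000251357 and SLC2A11. The CD14 stretch lies at chr5:140635163-140635192 on the minus strand, between genes. The IL7R stretch lies at chr5:35089859-35089888 on the plus strand, in an intron of PRLR. The SRGN stretch lies at chr10:69007435-69007464 on the minus strand, in an intron of KIFBP.

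Same-side pairs of CBS viewpoints lay mostly on the side that the motif faces. At 0 h, over 50% of the same-side counts were on that side at 27 of the 29 viewpoints, with a median of 74.6%. At 96 h this held at 26 of 29, with a median of 78.6%. At the 8 viewpoints with an exact match it held at all 8 in each of the 3 CBS libraries, and the share ranged from 66.4% to 85.2% at 0 h and from 75.5% to 88.4% at 96 h. The enhancer of the locus lay on the facing side at 26 of the 29 viewpoints, so the motif and the enhancer mostly give the same side. At IGLL1, a surrogate light chain gene of pre-B cells, the enhancer lay behind the motif, and 73.0% of the counts at 0 h were on the facing side. SRGN, which encodes the granule proteoglycan serglycin, went the other way, with 23.9% on the facing side at 0 h and 7.75% at 96 h. Its enhancer lay behind the motif, whose core differs from the consensus at 1 position. These traits do not set SRGN apart. PELI1 shared both and had 69.8% on the facing side at 0 h and 63.1% at 96 h. Of the 21 viewpoints with 1 mismatch, 19 had over 50% on the facing side at 0 h.

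**Figure D1:**
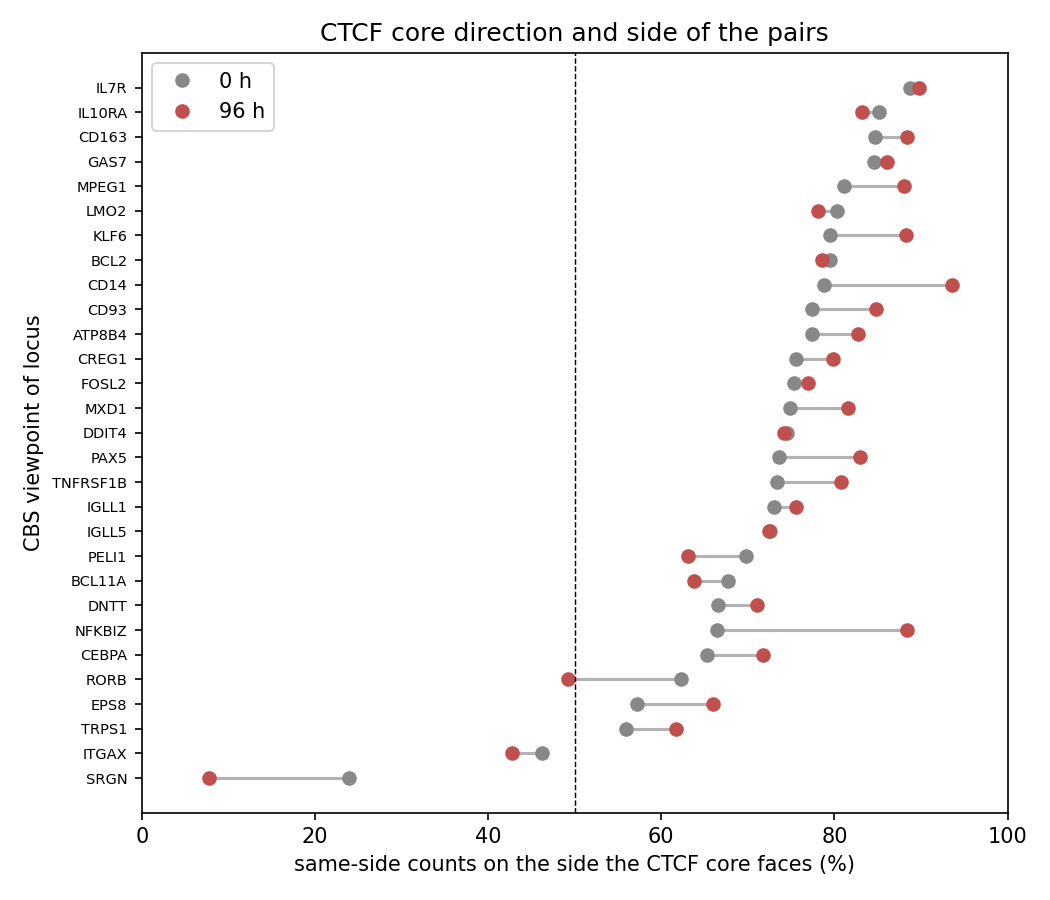
Share of same-side counts on the side that the CTCF core faces (x axis, percent) at 29 CBS viewpoints (y axis) at 0 h (gray) and 96 h (red), with 1 pooled library per time and a dashed line at 50%. Most points lie to the right of the line, and SRGN and ITGAX lie to its left at both times.

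Members made up a similar part of the data in most libraries. Counts on the same side were 18.2%, 18.4% and 19.2% of all counts within 1 Mb of enhancer viewpoints before conversion, at 24 h and at 96 h, and 20.9%, 22.4% and 23.2% from CBS viewpoints. In the CTCF-depleted library they were 12.6%, the lowest of the 7. Members were 63.0% of distant counts in the enhancer control at 96 h and 62.5% with depletion, so opposite-side pairs were a smaller part of all counts there as well. A file held between 1898 and 25786 member counts. Over all libraries CCR1, a chemokine receptor, had the most (138001), followed by IL7R, the interleukin-7 receptor of early lymphocytes (113613), and TRIB1, a pseudokinase of myeloid cells (103281). CREG1 (37786), TNFRSF1B (38577) and IRAG2 (43087) had the fewest. From enhancers, the nearer fragment of a member lay a median of 85.8 kb from the viewpoint before conversion, 72.4 kb at 96 h and 99.8 kb with depletion. The farther fragment lay at 293.6, 230.2 and 309.2 kb. From CBSs these distances were 136.2 and 319.4 kb before conversion and 138.7 and 318.4 kb at 96 h. The distances are medians over loci. Most pairs were seen once, 75.7% of them in the enhancer library at 0 h, 84.0% in the CBS library at 0 h and 64.9% in the depleted library, and no pair exceeded 58 counts.

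From enhancers, distant pairs were more often on the same side than on opposite sides at each of the 51 loci in each library. The same-side share of distant counts had a median of 63.7% at 0 h and ranged from 59.1% to 75.3%. CBS viewpoints gave a median of 69.0%, between 62.8% and 74.0%. The CBS of a locus had the higher share at 45 of 51 loci at 0 h, at 44 at 24 h and at 43 at 96 h. Members of CBS viewpoints were also more lopsided. The larger of the sides held a median of 75.4% of the member counts from CBSs and 61.5% from enhancers at 0 h. If the sides of the fragments were unrelated, such a lean would by itself put more pairs on the same side than on opposite sides. The part of the lean in the same-side share, and in its differences between viewpoints, libraries and loci, was not tested.

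**Figure D2:**
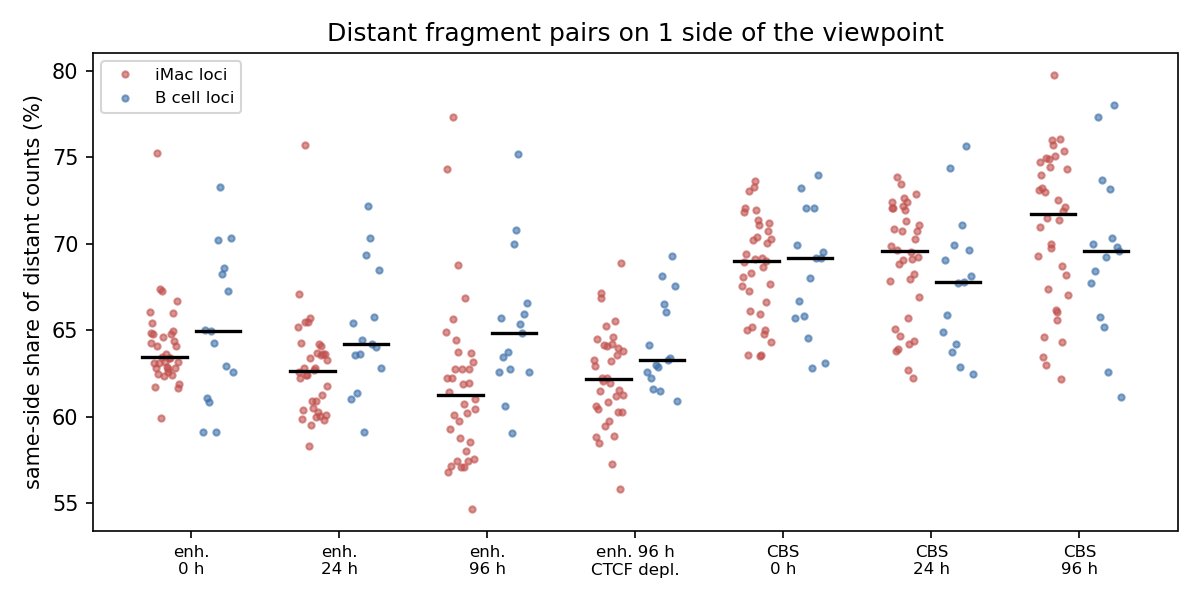
Same-side share of distant counts (y axis, percent) per locus in each of the 7 pooled libraries (x axis), with iMac loci in red, B cell loci in blue and class medians as black lines. All points lie above 50%, and the CBS libraries lie higher than the enhancer libraries.

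The same-side share moved little during conversion. A locus is called changed here when its log2 odds ratio was at least 0.25 in size and its interval left out 0. From enhancers at 96 h against 0 h, the share rose at 2 of 51 loci and fell at 11 (3.92% and 21.6% of loci tested). Of the 36 iMac loci it rose at 1 and fell at 10, with medians of 63.5% at 0 h and 61.2% at 96 h. SRGN had the largest fall, from 64.1% (7137 of 11130 counts) to 54.7% (3568 of 6525), a log2 odds ratio of -0.57 with an interval of -0.66 to -0.48. CCR1 rose instead, from 64.8% to 74.3%, a log2 odds ratio of 0.65 with an interval of 0.60 to 0.70. In the depleted library it was 60.6%, lower than at 0 h. Against the control at 96 h, depletion was accompanied by a rise at 2 loci (3.92%) and a fall at 4 (7.84%). From CBSs the share at 96 h rose at 14 loci (27.5%) and fell at 1 (1.96%), and 12 of the 14 were iMac loci. NFKBIZ, which encodes a nuclear IκB protein, had the largest rise, from 64.8% to 76.1%, followed by KLF4, a transcription factor of monocytes, from 71.4% to 79.8%.

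Far contacts took a smaller share of the members at iMac loci during conversion and a larger share with CTCF depletion, but as a share of all counts they were lower with depletion. The share of member counts whose farther fragment lay beyond 300 kb had a median of 50.7% before conversion, 45.3% at 24 h and 37.5% at 96 h at the 36 iMac loci, and of 48.6% with depletion. At 96 h against 0 h it fell at 31 of them and rose at none, against 33 falls (64.7%) and 8 rises (15.7%) over all 51 loci, and the median log2 odds ratio of the iMac loci was -0.66. It fell in both steps, from 0 h to 24 h and from 24 h to 96 h, at 21 iMac loci. In the depleted library it was called higher than in the control at 26 iMac loci and lower at none, with a median of 0.61, against 36 rises (70.6%) and 1 fall (1.96%) over all loci. The value of the depleted library was below that of 0 h at 20 iMac loci and above it at 16. As a share of all counts within 1 Mb of the viewpoint, far same-side contacts had medians of 8.89% at 0 h, 6.80% at 96 h and 5.45% with depletion at iMac loci. On this scale the fall at 96 h was called at 23 iMac loci and a rise at 2, against 49% and 19.6% of all loci. With depletion 20 iMac loci fell and 1, NFKBIZ, rose, and 8 B cell loci fell and none rose, against 54.9% falls and 1.96% rises over all loci, so the direction turned with the denominator. CCR1 had 8.83% in the control and 7.82% with depletion, LMO2 4.08% and 3.00%, KDM7A 5.23% and 4.70%, and NFKBIZ 2.62% and 3.68%. The comparisons share the control library at 96 h, so a high or low value there moves both.

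The far share of B cell loci did not follow the course of iMac loci during conversion. Its median was 41.6% at 0 h, 49.2% at 24 h and 46.3% at 96 h, with 8 rises and 2 falls among the 15 loci at 96 h. In the depleted library it was higher than in the control, as at iMac loci, at 55.7%, with rises at 10 loci and a fall at BCL2 alone. BCL2, an inhibitor of apoptosis, had 41.97% at 0 h, 50.9% at 96 h and 40.9% with depletion. RAG2, a subunit of the V(D)J recombinase, had 35.4% at 0 h, 43.96% at 24 h, 43.4% at 96 h and 60.7% with depletion. IRAG2 had the largest rise at 96 h, from 20.6% to 29.8%, a log2 odds ratio of 0.71 with an interval of 0.60 to 0.82.

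Single iMac loci differed in how far they moved. NFKBIZ had 41.8% beyond 300 kb at 0 h (3047 of 7295 counts), 27.5% at 24 h, 14.6% at 96 h (1445 of 9883) and 31.2% with depletion. Its log2 odds ratio at 96 h was -2.07 with an interval of -2.17 to -1.96, the largest fall of the 51 loci. CCR1 had 49.4%, 42.3% and 30.2% over the time course and 51.4% with depletion. KDM7A, a histone demethylase, had 53.5%, 45.3% and 34.0% and then 39.7%, and LMO2, a hematopoietic transcription cofactor, had 47.6%, 36.9% and 33.5% and then 35.3%. The LMO2 difference between the depleted and the control library was 0.11 with an interval of -0.02 to 0.24, and it was not called. SRGN fell from 48.9% at 0 h to 35.8% at 96 h and was 32.6% with depletion, which was not called either. TRIB1 had 55.8%, 59.1% and 45.9% and then 55.0%.

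From CBS viewpoints the far share moved in both directions. At 96 h there were 9 rises and 16 falls among iMac loci, and 7 rises and no fall among B cell loci, against 31.4% rises and 31.4% falls over all loci. CD14 had the largest fall, from 47.1% to 22.8%, and PAX5, a B lineage transcription factor, the largest rise, from 34.7% to 53.4%. At 24 h there were rises at 11 iMac and 9 B cell loci and a fall at 1 iMac locus, against 39.2% and 1.96% over all loci.

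The change in far contacts was not particular to pairs on the same side. Among opposite-side pairs, the share with the farther fragment beyond 300 kb gave a median log2 odds ratio of -0.61 at iMac loci at 96 h, beside -0.66 for same-side pairs, and the same-side value was the lower at 21 of 36 loci. With depletion the medians were 0.64 and 0.61. The member share of all counts was lower in the depleted library (12.6% against 19.2% in the control), and the part of this difference in the far share was not tested.

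**Figure D3:**
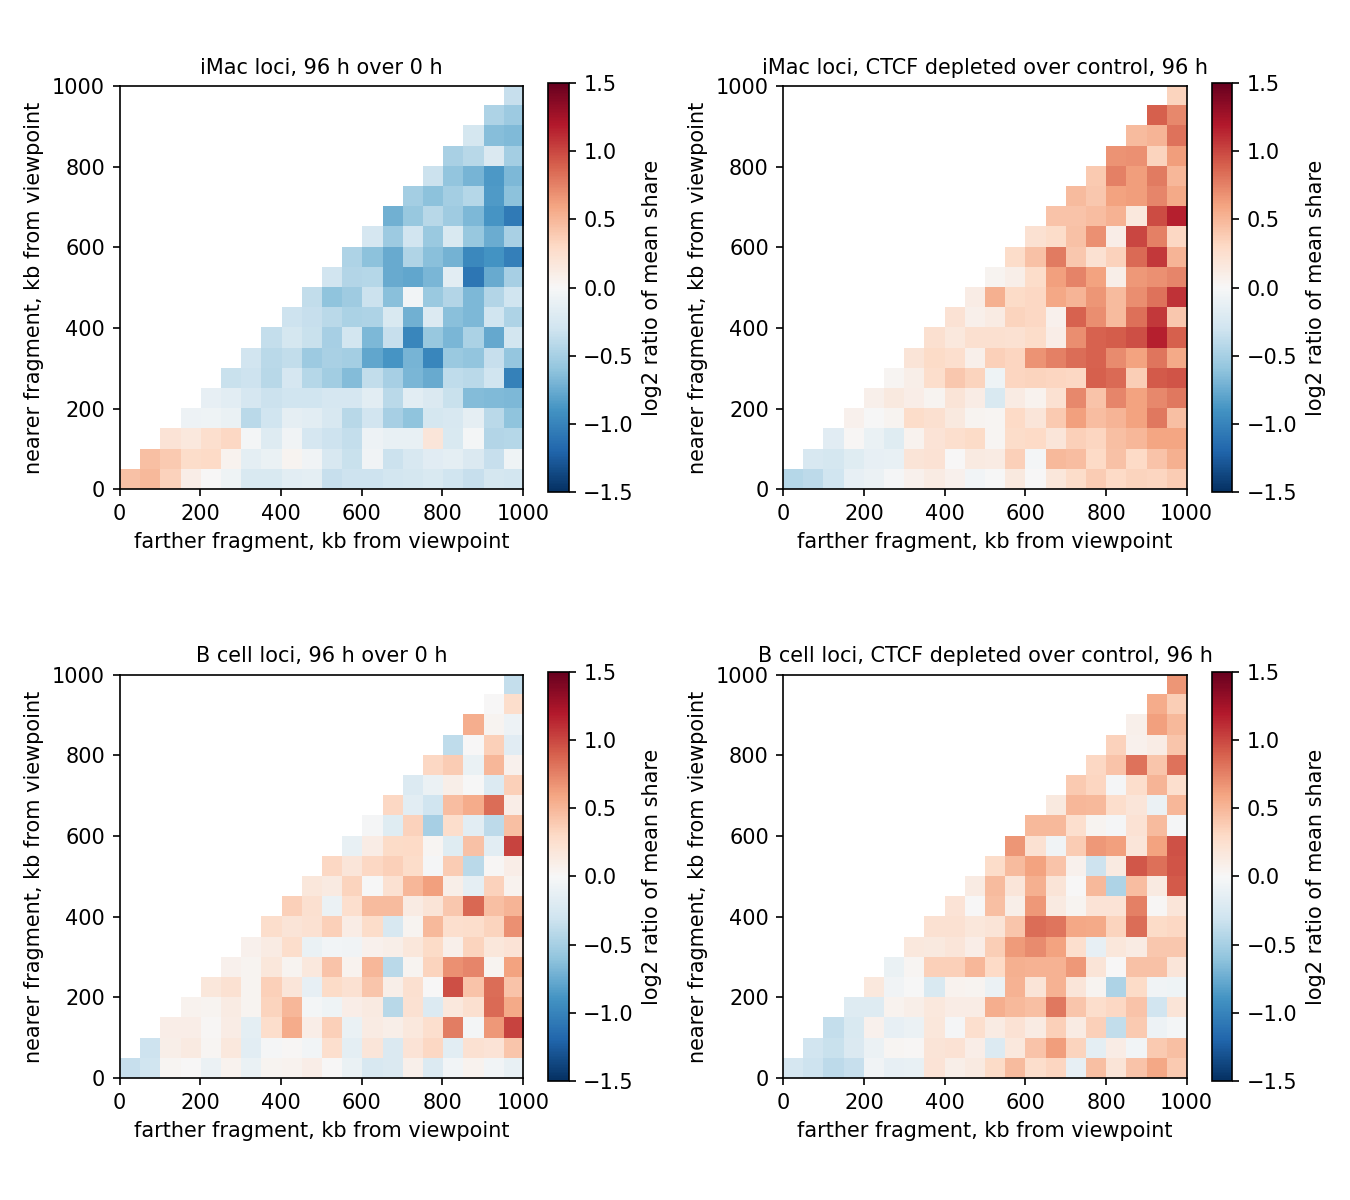
Log2 ratio of the mean share of member counts in squares of 50 kb, by the distance of the farther fragment (x axis, kb) and of the nearer fragment (y axis, kb) from the enhancer viewpoint, with each locus weighted alike. Squares with the farther fragment at 300 kb or more numbered 189. At iMac loci, 187 of them were lower at 96 h than at 0 h, and 184 were higher in the depleted than in the control library. At B cell loci, 138 were higher at 96 h and 164 were higher in the depleted library. As a share of all counts, far contacts more often fell than rose with depletion in both classes.

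The boundary site divides the pairs of its side into those with both fragments before it, as seen from the enhancer, those astride it and those with both fragments beyond it. At iMac loci the share before the boundary site had a median of 37.5% at 0 h, 40.0% at 24 h and 51.3% at 96 h over the 33 loci with room for such pairs, and 36.8% with depletion. At 96 h it rose at 29 of 33 and fell at none, against 67.4% and 15.2% of all 46 loci tested. With depletion it fell at 30 of 33 and rose at none, against 87% and 2.17% of all loci. The share beyond the site had medians of 35.7% before conversion, 31.5% at 24 h and 23.0% at 96 h, and of 30.6% with depletion. It fell at 30 of 36 iMac loci at 96 h (62.7% of all loci) and rose at none, and with depletion it rose at 32 (86.3% of all loci) and fell at 1, DDIT4, a stress-induced inhibitor of mTOR signaling, where it went from 89.9% to 86.1%. As a share of all counts, pairs before the site fell with depletion at all 33 iMac loci, from a median of 4.36% to 2.22%, against 95.7% falls and 0% rises over all loci. Same-side pairs as a whole were also lower on this scale, at 19.2% in the control library and 12.6% in the depleted library. The part of this in the fall before the site was not tested. Pairs beyond the site were nearly level on this scale, at 1.72% and 1.82%, with 12 rises and 8 falls among iMac loci and 6 rises and 6 falls among B cell loci, against 35.3% and 27.5% of all loci. From 0 h to 96 h the directions were those of the boundary-side shares, with 23 rises and 3 falls before the site and 29 falls and no rise beyond it at iMac loci, against 56.5% rises and 19.6% falls before it and 60.8% falls and 11.8% rises beyond it over all loci. Pairs astride the site changed less as a share of the boundary side. Their share had medians of 29.9%, 28.9% and 26.2%, and then 33.1%, with 4 rises and 13 falls at 96 h (15.7% and 31.4% of all loci) and 18 rises and 4 falls with depletion (47.1% and 15.7%).

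At 24 h fewer loci had moved. The share before the site had 14 rises and 2 falls among 33 iMac loci, and 1 rise and 7 falls among 13 B cell loci, against 32.6% and 19.6% of all loci. LMO2 had the largest rise, from 18.5% to 39.95%, followed by GAS7, from 32.7% to 56.8%. IRAG2 had the largest fall, from 61.7% to 36.8%. The share beyond the site had 5 rises and 12 falls among iMac loci, and 8 rises and no fall among B cell loci, against 25.5% and 23.5% of all loci. The share astride it rose at 13.7% of all loci and fell at 19.6%.

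By the role of the gene, the fall beyond the boundary site at 96 h was called at 12 of 13 myeloid transcription regulators, at 11 of 13 genes of myeloid surface and secreted proteins and at 7 of 10 signaling and other myeloid loci, with median log2 odds ratios of -1.01, -0.40 and -0.54, beside falls at 62.7% of all loci. With depletion the share beyond the site rose at all 13 transcription regulators, at 10 of 13 surface and secreted proteins and at 9 of 10 of the others, beside rises at 86.3% of all loci. The difference between these lists was not tested.

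NFKBIZ again moved most. Of its pairs on the boundary side, 52.0% lay before the site at 0 h (2339 of 4494 counts), 67.4% at 24 h, 83.3% at 96 h (4940 of 5931) and 64.5% with depletion. The share beyond the site was 20.7%, 11.4%, 4.67% and 13.1%. KDM7A had 16.9%, 29.0% and 44.5% before the site and then 18.3%, a value close to that of 0 h, and CCR1 had 52.6%, 62.6% and 72.0% and then 42.3%, below that of 0 h. KLF4 had 59.1%, 58.6% and 81.2% and then 53.4%, so its change came between 24 h and 96 h. IRF8, a transcription factor of monocytes and B cells, had 44.4%, 65.8% and 62.0% and then 39.7%, and most of its change came by 24 h.

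At B cell loci the pairs before the boundary site had medians of 47.7%, 44.5% and 48.5% and then 31.6% over 13 loci. At 96 h the share rose at 2 and fell at 7. With depletion it fell at 10 and rose at 1, IGLL1. MYB, a transcription factor of progenitor cells, had 71.7%, 62.3% and 62.1% and then 42.4%. RAG2 had 21.5%, 13.0% and 12.5% and then 5.78%. Both loci therefore fell with conversion and again with depletion. In the depleted library, the share beyond the site was above that of 0 h at 14 of 15 B cell loci and at 21 of 36 iMac loci.

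**Figure D4:**
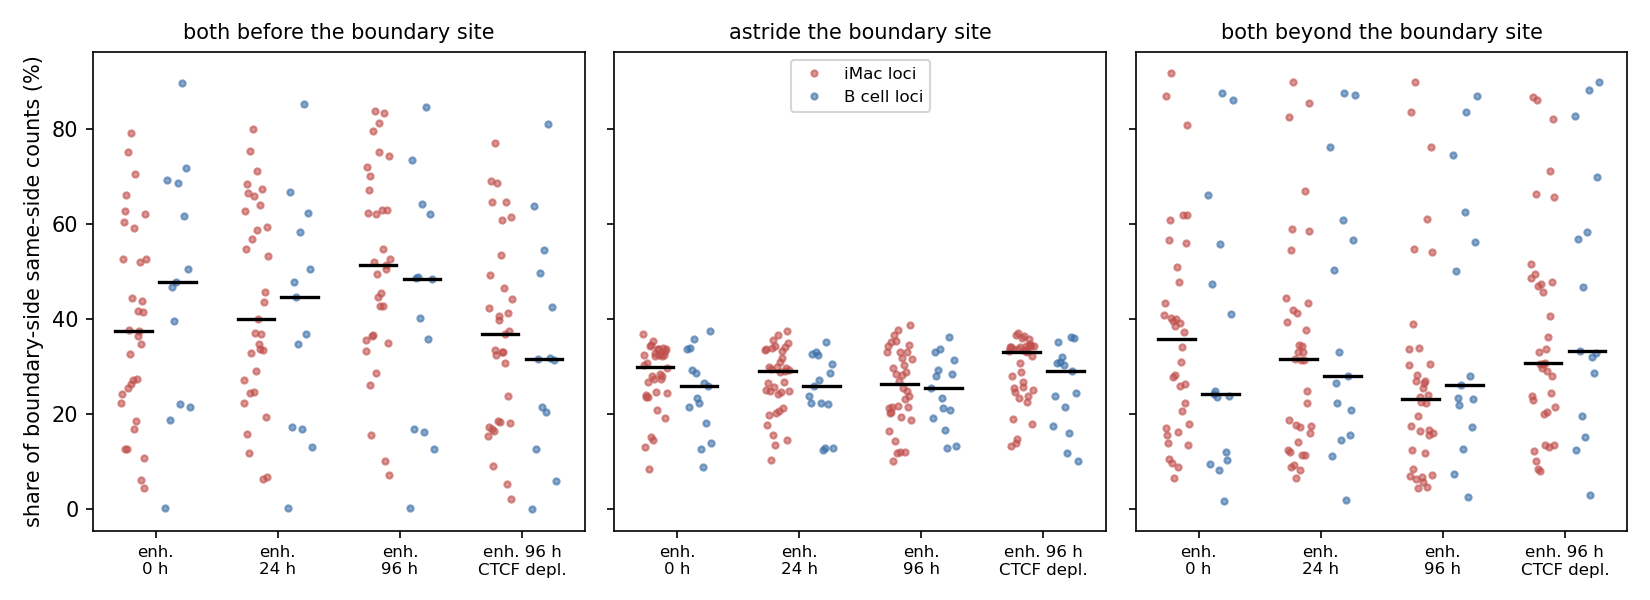
Share of boundary-side same-side counts (y axis, percent) with both fragments before, astride or both beyond the boundary site, per locus in the 4 enhancer libraries (x axis), with iMac loci in red, B cell loci in blue and class medians as black lines. At iMac loci the median before the site was highest at 96 h in the control cells (51.3%), and the median beyond it was lowest there (23.0%).

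The target promoter, seen from enhancers, became more frequent in same-side pairs at iMac loci and less frequent at B cell loci. The same was seen in opposite-side pairs from enhancers. Of the reporters of member pairs on the promoter's side, those within 6 kb of the promoter had a median share of 3.88% at 0 h, 4.65% at 24 h and 5.97% at 96 h at iMac loci, and 6.15%, 3.86% and 3.10% at B cell loci. At 96 h there were 32 rises and no fall among the 36 iMac loci, and the share fell at 14 of 15 B cell loci and rose at none, against 62.7% rises and 27.5% falls over all loci. It rose in both steps at 28 iMac loci and fell in both steps at 12 B cell loci. RBPJ, the nuclear effector of Notch signaling, had the largest rise, from 1.54% (331 of 21548 reporters) to 4.38% (932 of 21264), and IL7R the largest fall, from 9.95% to 3.10%. All 13 myeloid transcription regulators rose, as did 12 of 13 surface and secreted proteins, beside 32 of all 36 iMac loci. The remaining rises were at signaling and other myeloid loci. The difference between these lists was not tested.

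With CTCF depletion the promoter share of iMac loci was 4.37%, lower than in the control at 26 of 36 loci by the call and higher at none, against 58.8% falls and 3.92% rises over all loci. It remained above the value of 0 h at 29 of 36. CCR1 fell most, from 10.1% to 4.35%, close to its 4.13% at 0 h. LMO2 (16.0% and 14.9%), SRGN (14.8% and 13.7%), KDM7A (6.72% and 6.51%) and TRIB1 (2.98% and 2.82%) were not called different between the control and the depleted library. The interval of the log2 odds ratio was -0.28 to 0.04 at LMO2, -0.32 to 0.07 at SRGN, -0.26 to 0.17 at KDM7A and -0.25 to 0.08 at TRIB1.

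At 24 h the same-side promoter share from enhancers had risen at 24 iMac loci and fallen at 1. It had fallen at 13 B cell loci and risen at none, against 47.1% rises and 27.5% falls over all loci. FOSL2, a subunit of AP-1, had the largest rise, from 1.27% to 3.17%, and IGLL1 the largest fall, from 6.67% to 2.64%.

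The side of the promoter was favored as well. From enhancers, the share of member counts on it had medians of 54.4%, 57.2% and 61.5% over the time course at iMac loci and 53.2% with depletion. At 96 h there were 18 rises and 5 falls among iMac loci, against 43.1% and 19.6% of all loci, and with depletion it rose at 8 and fell at 13, against 21.6% and 37.3%. PELI1 rose at 96 h from 44.8% to 64.4%.

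In opposite-side pairs from enhancers, the promoter share had medians of 4.23% at 0 h and 7.28% at 96 h at iMac loci and of 8.86% and 3.78% at B cell loci. At 96 h it rose at 62.7% of all loci and fell at 29.4%, and with depletion it rose at 11.8% and fell at 52.9%. The change was thus not particular to same-side pairs. The promoter window held a larger share of the promoter-side reporters in opposite-side pairs than in same-side pairs of the same library. A same-side pair on the promoter's side enters with both reporters and an opposite-side pair with a single reporter, so these are not shares of pairs. From enhancers the opposite-side share was the higher at 43 of 51 loci at 0 h, at 45 at 24 h, at 43 at 96 h and at 41 with depletion. The median log2 ratio of the same-side to the opposite-side share was between -0.34 and -0.30 in the 4 libraries. Reporters of the 2 kinds of pair differ in their distances from the viewpoint, and the part of this in the difference was not tested. From CBS viewpoints the same-side promoter share at 96 h had 18 rises and 3 falls among 32 iMac loci, with 7 rises and 2 falls among 14 B cell loci, against 54.3% rises and 10.9% falls over all 46 loci tested. Unlike from enhancers, the same-side share of B cell loci thus rose more often than it fell. Over all 46 loci tested, the opposite-side share rose at 30.4% and fell at 4.35%. EBF1, a B lineage transcription factor, had the largest rise of the same-side share, from 0.43% to 1.07%, followed by KLF6, from 0.72% to 1.70%, and CCR1, from 2.49% to 5.29%. From CBS viewpoints neither kind was regularly higher, with the opposite-side share above the same-side share at 24 of 46 loci at 0 h.

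**Figure D5:**
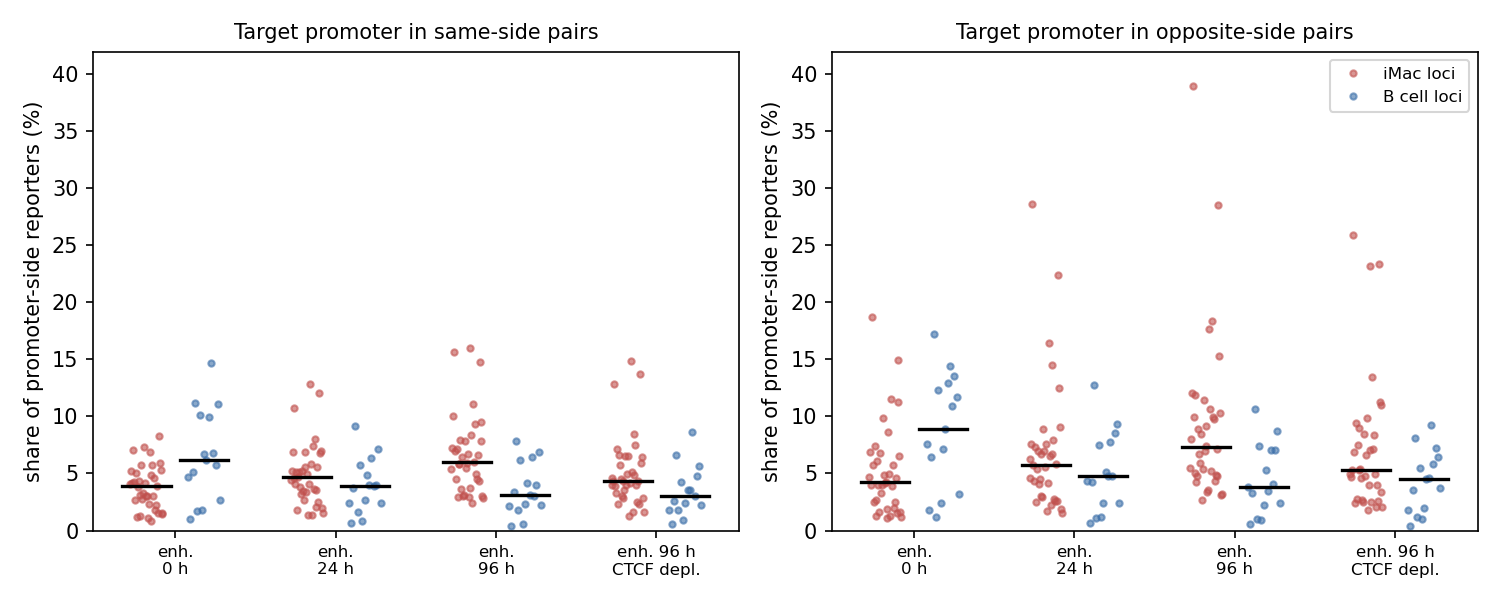
Share of promoter-side reporters within 6 kb of the target promoter (y axis, percent) in same-side pairs (left) and opposite-side pairs (right), per locus in the 4 enhancer libraries (x axis), with iMac loci in red, B cell loci in blue and class medians as black lines. The iMac median rose from 3.88% to 5.97% in same-side pairs, and the B cell median fell from 6.15% to 3.10%.

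Seen from the boundary, same-side pairs turned toward the enhancer during conversion. The share of member counts on the enhancer's side of CBS viewpoints had a median of 75.4% before conversion, 77.9% at 24 h and 80.3% at 96 h at iMac loci. At 24 h it rose at 21 of 36 and fell at 2, against 49% rises and 9.8% falls over all loci. At 96 h it rose at 25 and fell at none, against 62.7% and 3.92% over all loci. CD14, a monocyte co-receptor for lipopolysaccharide, went from 78.8% to 93.6%, NFKBIZ from 66.4% to 88.4%, and SRGN from 76.1% to 92.2%. RORB, classed with the B cell loci, went from 62.2% to 49.2%. At all 36 iMac loci the promoter lay on the same side of the CBS as the enhancer. The promoter's side therefore gave the same values there and is no separate result. Over all loci its share rose at 60.8% and fell at 5.88% at 96 h. From enhancers the share on the side of the boundary fell more often than it rose at 96 h, with 12 rises (23.5%) and 20 falls (39.2%), and its median over the 51 loci was 53.6% at 0 h and 50.1% at 96 h. At each locus this share is either the share on the promoter's side or the remainder of the member counts. It is therefore no separate result from the promoter-side share given above. CCR1, whose promoter lay on the boundary's side, had the largest rise, from 53.6% to 86.7%, and was at 63.2% with depletion.

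The spacing of the fragments relative to their distance from the viewpoint barely changed. The distance between the fragments itself did change from enhancers. Its median over loci was 97.8 kb at 0 h, 92.8 kb at 24 h, 76.0 kb at 96 h and 99.9 kb with depletion. For CBSs it was 113.0, 118.3 and 113.4 kb over the time course. The share of member counts whose fragments lay closer to each other than the nearer one lay to the viewpoint had a median of 48.4% from enhancers and 51.2% from CBSs at 0 h. At 96 h it rose at 2 loci (3.92%) and fell at 3 (5.88%) from enhancers, and rose at 1 (1.96%) and fell at 2 (3.92%) from CBSs. With depletion it rose at 4 (7.84%) and fell at 1 (1.96%).

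Same-side bin pairs of 50 kb were compared as a share of all distant counts of the locus and called at a log2 ratio of at least 1 in size, with at least 50 counts over both libraries. From enhancers at 96 h against 0 h, 355 of 4055 rose (8.75%) and 482 fell (11.9%). Of all distant bin pairs, opposite-side ones included, 9.25% rose and 10.7% fell. With at least 100 counts the order of the directions turned, with 160 rises and 126 falls. With depletion 411 of 3858 rose and 378 fell, beside 10.4% and 10.2% of all distant bin pairs, and with at least 100 counts 94 rose and 190 fell. From CBSs at 96 h, 337 of 4252 rose and 195 fell, beside 6.96% and 5.11% of all distant bin pairs. At 24 h the counts were 224 rises and 206 falls of 4438 from enhancers, beside 4.87% and 4.25% of all distant bin pairs, and 173 rises and 86 falls of 4602 from CBSs, beside 3.31% and 1.88%.

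At iMac loci the far bin pairs fell more often than they rose at 96 h. With the farther bin at 300 kb or more, 297 of 1649 fell (18.01%) and 132 rose (8.005%) at 96 h, beside 11.9% and 8.75% of all same-side bin pairs, whereas with both bins below 100 kb 8 of 215 fell and 18 rose. With depletion 200 of 1441 far bin pairs of iMac loci rose and 127 fell, whereas 66 of 676 far bin pairs of B cell loci rose and 97 fell. Over all same-side bin pairs with depletion, 10.7% rose and 9.80% fell. The order of the directions over all same-side bin pairs turned at 100 counts, both at 96 h and with depletion. No direction is therefore drawn from the far bin pairs.

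Among the bin pairs of largest change, several IL7R pairs held the boundary bin. At IL7R, the bin that holds the boundary site (chr5:35058795-35108794) and a bin at chr5:35658795-35708794 had 3 of 15057 distant counts at 0 h, 60 of 26361 at 24 h and 97 of 23789 at 96 h, a log2 ratio of 4.14 at 96 h with an interval of 2.77 to 6.66. The boundary bin together with the bin that holds the start of SPEF2 had 92 of 23789 counts in the control and 4 of 19960 with depletion, a log2 ratio of -4.11 with an interval of -6.18 to -2.87. At CCR1, pairs within the bin chr3:45789783-45839782, which holds the start of the transporter gene SLC6A20 on the side away from the promoter, fell from 101 of 29881 counts at 0 h to 9 of 31026 at 96 h. At RBPJ, the bins chr4:25724831-25774830 and chr4:25874831-25924830 on the side of the boundary, the latter with the start of SMIM20, rose from 3 of 21375 counts in the control to 62 of 16055 with depletion. These bin pairs were picked for the size of their ratios, and the minimum count applied to both libraries together. A pair with few counts in a library could therefore enter through its counts in the other library. The intervals do not allow for this choice, so no conclusion is drawn from the size of these ratios. The coordinates are those of hg38.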

How the data were processed

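Tri-C libraries were made by the authors from BLaER1 cells with NlaIII digestion and capture, processed with CapCruncher in capture mode against hg38, and merged over replicates, after which every pair of reporters in reads with at least 2 reporters on the viewpoint's chromosome was counted. The deposited unit is a count per fragment pair. Pairs from 1 read are not independent, and reads carry no molecular identifiers. There were 371 files for 53 loci, and IFNGR2 and TASL were left out. Of 4798853 listed fragments, 4798852 lay between NlaIII sites of the reference. Total counts within 1 Mb were 2114228 to 3181296 per library and 12563 to 144727 per file.

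Shares were compared between libraries by log2 odds ratios (0.5 added to each count) with exact conditional intervals at 95%, and bin pairs by exact conditional binomial intervals of their ratio. Promoters came from GENCODE 44. Windows of 12 kb were used at promoters and left out at boundary sites. A share needed at least 20 counts. Code was tested on simulated data. Loci named are those the study's text names, the 3 largest called rises and falls per comparison, the 3 loci with most and with fewest member counts, and for bins the 3 largest rises and falls. Other loci were named after their values were seen. Members, lists and rules were chosen with earlier results of these data known. The viewpoint correction, the shares before and beyond the boundary site, the far share of opposite-side pairs and the shares of all counts were added after the data were seen. IRAG2, CEBPA and MPEG1 are listed as LRMP, CEBPa and MPEG. Results of some loci are not reported here. Software versions were 3.11.15 for Python, 2.4.6 for NumPy, 2.3.3 for pandas, 1.17.1 for SciPy and 3.10.9 for matplotlib.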

Additional observations from a re-analysis of the deposited data

How the results depend on the processing

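No paired analysis was possible because each deposited file pools the 3 replicates, and the data gave no leave-one-out value for the same reason. Of 554 alternative values that answer a comparison, 499 were within the set limits of the reported value, 52 moved and 3 turned direction. A turn was judged by the sign of a median log2 odds ratio. Counts of bin pairs have no such median, so the turns in the order of their rises and falls are not among the 3. The 3 that turned came from taking counts as a share of all counts within 1 Mb, an alternative chosen after seeing the data. With it, the far share with depletion rose at 1 and fell at 20 iMac loci and rose at 0 and fell at 8 B cell loci, and the share beyond the boundary site rose at 6 and fell at 6 B cell loci. It also gave 12 iMac loci that rose beyond the site with depletion, 9 that rose before it at 24 h, and 5 whose far share from CBSs fell at 96 h. The 9 loci whose viewpoint the touching fragments misplaced were all iMac loci. Without them 42 loci remained, and among the iMac loci left, fewer than the 36 used elsewhere, the far share at 96 h fell at 24 and rose at none. The same-side share from enhancers at 96 h fell at 16 iMac loci with fragments over 20 kb apart. With an outer limit of 500 kb, the boundary-side share from enhancers fell at 3 B cell loci at 24 h, the far share from CBSs rose at 5 B cell loci at 24 h, and the share before the boundary site fell at 6 B cell loci with depletion. With counts divided by 3, the same-side promoter share fell at 17 iMac loci with depletion and rose at 3 from CBSs at 24 h. With the exact CTCF consensus, 8, 8 and 8 viewpoints had over 50% on the facing side in the CBS libraries, because fewer viewpoints held it.

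Counts of called same-side bin pairs depended most on depth and on the setting. With at least 100 counts, rises and falls were 61 and 49 from enhancers at 24 h, 160 and 126 at 96 h, 94 and 190 with depletion, and 44 and 12 from CBSs at 24 h and 158 and 39 at 96 h. With counts divided by 3 they were 32 and 24, 114 and 58, 39 and 114, 18 and 6, and 90 and 15 in the same order. With each listed pair counted once, there were 103 rises and 96 falls from enhancers at 24 h, 266 falls at 96 h, 187 rises and 236 falls with depletion, and 115 rises and 45 falls from CBSs at 24 h. With an outer limit of 500 kb there were 134 rises at 24 h and 189 at 96 h from enhancers, 188 falls with depletion, and from CBSs 96 rises and 49 falls at 24 h and 171 rises at 96 h. With bins of 25 kb there were 266 falls at 96 h from enhancers and 248 rises with depletion. With bins of 100 kb there were 166 rises at 96 h from enhancers, 126 falls with depletion, and from CBSs 113 rises and 54 falls at 24 h and 159 rises at 96 h. The cause of these differences was not tested. Intervals cover counting error only, and with 1 library per condition the spread between replicates is unknown.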
